A study of Ovis aries with 6 samples.

Results

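The genes of the methionine cycle and of the transsulfuration branch that leaves it are described here in the longissimus muscle of 2 sheep breeds. The rule took the rows of the deposited gene table named CBS, CTH, MAT1A, MAT2A, MAT2B, AHCY, MTR, MTRR, GNMT and CDO1. It found 9 of them among 23144 genes. AHCY has no row under that symbol, and its gene ID in RefSeq is the one in the row name LOC101112245, so that row was taken as AHCY to make 10. The samples came from 3 sheep of the local Small Tail Han breed (STH) and 3 of the meat breed Qianhua Mutton Merino (QHMM), all females aged 1 year, kept in the same environment and untreated, with 1 poly(A) RNA library per animal read on an Ion Proton instrument. The question was which genes differ in muscle between these breeds, and every difference below is STH vs. QHMM.

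The methionine cycle makes S-adenosylmethionine (SAM), the methyl donor of most methylation reactions. Each methyl transfer leaves S-adenosylhomocysteine, which is split into adenosine and homocysteine, and homocysteine is either methylated back to methionine or passed by transsulfuration into cysteine. Liver is the organ best known for the complete pathway, while the uses of SAM in muscle include protein and RNA methylation and polyamine synthesis.

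The 6 libraries held 10982191 to 14334544 reads counted on genes. Of the 10 genes, 8 passed the filter for low counts and were tested with edgeR among 12506 genes. Levels are given in RPKM (reads scaled by gene length and by library total), which can be compared between genes, and differences in CPM, the share of a library's reads scaled to a fixed total and adjusted for library composition by the TMM method. A gene was called at a false discovery rate (FDR) under 0.05 together with a change of more than 1.5-fold in either direction. On the second principal component of all tested genes, which held 19.1% of the variance, QHMM replicate 2 and STH replicate 3 stood apart from the other 4 libraries. The libraries are of muscle by ACTA1, at 41970 to 119800 CPM, and CKM, at 31740 to 63640 CPM, although TNNT3, a fast troponin, is listed at 0 in all 6. In whole muscle, fewer cells of a type and less RNA per cell cannot be told apart.

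CBS was up-regulated in STH muscle and was the only member called, 1 of 8 tested against 3.45% of all tested genes (1.62% called up-regulated and 1.83% down-regulated). CBS encodes cystathionine beta-synthase, which joins homocysteine to serine in the committing step of transsulfuration. Its level was 6.83, 9.23 and 9.97 CPM in QHMM, against 17.8, 29.8 and 16.8 CPM in STH, each series of values here and later being in the order of replicates 1, 2 and 3. The lowest STH library was thus above the highest QHMM library, and STH replicate 2 was the highest of the 6. The mean rose from 8.68 ± 1.64 CPM (SD, n = 3) to 21.5 ± 7.25 CPM (n = 3), a log2 fold change of 1.31 (SE 0.29, 95% interval 0.67 to 1.95, FDR = 0.0397). CBS was also the only tested member whose libraries did not overlap between breeds, which held for 24.7% of all tested genes. Its call was lost without QHMM replicate 1 (FDR = 0.126), QHMM replicate 2 (FDR = 0.0964), QHMM replicate 3 (FDR = 0.0868) or STH replicate 2 (FDR = 0.116), with log2 fold changes between 0.98 and 1.46 over the 6 fits that left out 1 library. It was also lost with limma-trend on log2(RPKM + 1), where the FDR was 0.0679.

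**Figure D1:**
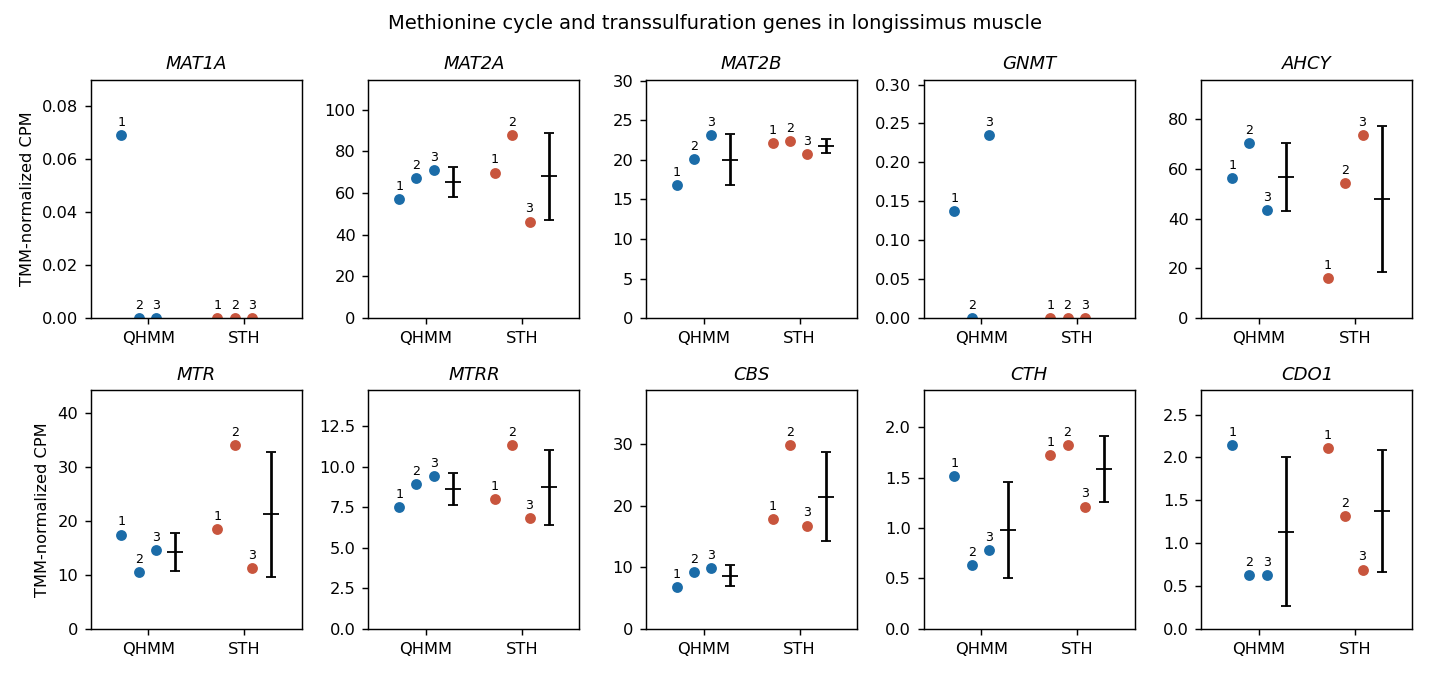
Each panel gives the TMM-normalized CPM (vertical axis, from 0) of 1 member in the 3 QHMM (blue) and 3 STH (red) libraries, numbered by replicate, with the mean and SD of each breed in black except for MAT1A and GNMT, which had 3 counts or fewer in every library. In the CBS panel all STH points, from 16.8 to 29.8, lie above all QHMM points, from 6.83 to 9.97, and in the panels of the other 7 tested members the breeds overlap.

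CTH, the next enzyme of the branch, cuts cystathionine to release cysteine. It was read from 7 to 27 times per library, with 1.52, 0.63 and 0.79 CPM in QHMM and 1.72, 1.82 and 1.21 CPM in STH. The STH libraries were not all above the QHMM libraries, because QHMM replicate 1 exceeded STH replicate 3. CTH was not called (log2 fold change 0.67, SE 0.47, 95% interval -0.36 to 1.71, FDR = 0.478), and at these counts the interval covers both no change and the change seen in CBS. Without 1 library the log2 fold change ranged from 0.46 (without QHMM replicate 2) to 1.12 (without QHMM replicate 1), and it was called in none of these 6 fits (FDR 0.351 to 0.770). The level of CBS divided by that of CTH, in RPKM within a library, was 3.52, 11.4 and 9.94 in QHMM and 8.09, 12.8 and 10.8 in STH. Only QHMM replicate 1 lay apart in this ratio.

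CDO1 encodes cysteine dioxygenase, which oxidizes cysteine on the way to taurine and sulfate and is known to be abundant in liver and fat. It had 31, 7 and 8 reads in QHMM and 33, 16 and 8 reads in STH, or 2.14, 0.63 and 0.63 CPM against 2.11, 1.32 and 0.69 CPM. One library of each breed, replicate 1, was high, and the spread within a breed exceeded the difference between breeds (log2 fold change 0.27, SE 0.60, FDR = 0.854). The log2 fold change was -0.21 without STH replicate 1, -0.02 without QHMM replicate 3 and -0.0006 without QHMM replicate 2. It rose to 1.11 without QHMM replicate 1 and to 0.58 without STH replicate 3, again without a call. Of the 6 adipocyte markers, 3 were likewise highest in replicate 1 of both breeds (FABP4, PLIN1 and LEP) and 3 were not (ADIPOQ, CIDEC and PLIN4). In STH, however, LEP had only 5, 0 and 1 reads, and PLIN1 had 3.45, 1.82 and 2.86 CPM, a small margin. FABP4, a fatty acid carrier, had 41.1, 7.78 and 9.89 CPM in QHMM and 34.3, 11.9 and 10.9 CPM in STH.

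ADIPOQ (adiponectin) had 247, 85.2 and 129 CPM in QHMM against 35.7, 39.6 and 30.4 CPM in STH (log2 fold change -2.13, FDR = 0.0143). Of the 6 adipocyte markers, 4 were down-regulated in STH (ADIPOQ, PLIN1, LEP and CIDEC), against 1.83% of all tested genes. None of the 6 was at 0, and their summed level was 245 to 494 CPM in QHMM and 159 to 182 CPM in STH. The summed level of 5 fibroblast markers was 2236 to 3814 CPM in QHMM and 765 to 1746 CPM in STH, but none of them was called. COL1A1, COL1A2 and COL3A1 were lower in every STH library (FDR 0.0789 to 0.113), while PDGFRA and DCN overlapped between breeds. Over all tested genes, the breeds did not overlap in 24.7%. The summed level of 4 endothelial markers was 648 to 704 and 676 to 797 CPM. That of 5 leukocyte markers was 65.8 to 90.0 and 46.8 to 79.6 CPM, and none of these markers was called either. Among the adipocyte markers, FABP4 and PLIN4 were not called (log2 fold change -0.04 and 0.05). The part of adipocyte or fibroblast RNA in the values of CBS and CDO1 was not tested.

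**Figure D2:**
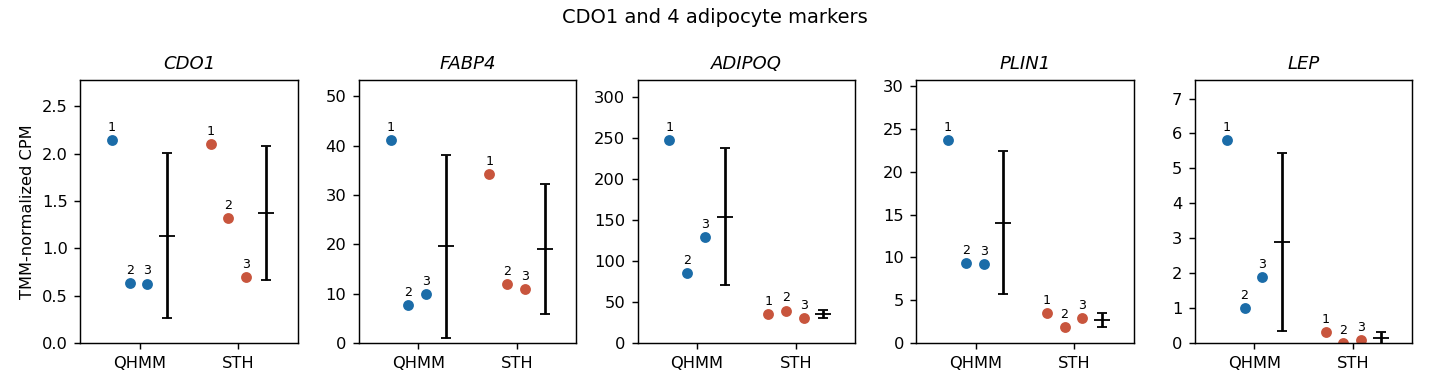
The panels give the TMM-normalized CPM (vertical axes, from 0) of CDO1 and of 4 adipocyte markers in the 3 QHMM (blue) and 3 STH (red) libraries, numbered by replicate, with mean and SD in black. Replicate 1 of both breeds is the high point for CDO1 (2.14 and 2.11), FABP4 (41.1 and 34.3), PLIN1 (23.7 and 3.45) and LEP (5.80 and 0.319). The STH point of LEP rests on 5 reads. ADIPOQ, PLIN1 and LEP are lower in every STH library than in every QHMM library. The other listed adipocyte markers, CIDEC and PLIN4, are not drawn. Like ADIPOQ, they were not highest in replicate 1 of both breeds.

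Homocysteine is returned to methionine by MTR, methionine synthase, whose cobalamin cofactor is kept active by MTRR, methionine synthase reductase. MTR had 17.5, 10.5 and 14.5 CPM in QHMM and 18.4, 34.0 and 11.4 CPM in STH. STH replicate 2, which was also highest for CBS, was alone above the QHMM range by a wide margin, and STH replicate 3 lay inside it. MTR was not called (log2 fold change 0.58, SE 0.37, 95% interval -0.24 to 1.40, FDR = 0.433), and its log2 fold change was 0.05 without STH replicate 2 and 0.89 without STH replicate 3 (FDR = 0.180). MTRR had 7.53, 8.96 and 9.42 CPM in QHMM against 8.04, 11.3 and 6.84 CPM in STH (log2 fold change 0.02, 95% interval -0.58 to 0.61, FDR = 0.981). The sign of this small value changed with the scaling of the libraries. Its breeds overlapped fully, and both the highest and the lowest value belonged to STH.

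The level of CBS relative to that of MTR compares the enzymes at which homocysteine leaves or re-enters the cycle. In RPKM within a library, that ratio was 0.619, 1.39 and 1.09 in QHMM and 1.53, 1.39 and 2.34 in STH. The medians were 1.09 and 1.53, and QHMM replicate 2 and STH replicate 2 met at the same rounded value. MTR relative to MTRR was 1.27, 0.643 and 0.846 in QHMM against 1.26, 1.65 and 0.91 in STH, and the breeds overlapped.

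SAM is made by methionine adenosyltransferase. MAT2A encodes its catalytic subunit outside the liver, MAT2B the regulatory subunit that binds it, and MAT1A the catalytic subunit of adult liver. MAT2A had 57.2, 67.0 and 71.2 CPM in QHMM and 69.8, 87.9 and 46.3 CPM in STH, so that STH held both the highest and the lowest library. Its log2 fold change was 0.06 (SE 0.26, 95% interval -0.50 to 0.63, FDR = 0.925). MAT2B had 16.8, 20.1 and 23.2 CPM in QHMM against 22.1, 22.4 and 20.8 CPM in STH (log2 fold change 0.12, 95% interval -0.35 to 0.60, FDR = 0.808). The 3 STH values lay close together within the upper QHMM range. In RPKM, the level of MAT2A was 2.51, 2.46 and 2.27 times that of MAT2B in QHMM and 2.32, 2.89 and 1.64 times in STH.

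The liver form and the liver methyltransferase of the list were at the floor. MAT1A had 1 read in QHMM replicate 1 and 0 in the other 5 libraries. GNMT, glycine N-methyltransferase, which disposes of surplus SAM in liver, had 2, 0 and 3 reads in QHMM and 0 in each STH library. A library with 0 reads allows up to 3, or 0.191 to 0.272 CPM at these depths, so no fold is given and neither gene was detectable beyond that limit in STH. Of 7 hepatocyte markers, APOB and AHSG were at 0 in all libraries and no marker exceeded 40 reads in any library, with a summed level of 1.18 to 2.75 CPM in QHMM and 1.24 to 4.08 CPM in STH.

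AHCY, adenosylhomocysteinase, splits S-adenosylhomocysteine and is the only mammalian enzyme that removes this inhibitor of methyl transfer. As LOC101112245 it had 56.3, 70.4 and 43.3 CPM in QHMM and 16.1, 54.1 and 73.6 CPM in STH. STH replicate 1 was the lowest library and STH replicate 3 the highest, and the log2 fold change of -0.24 (SE 0.44, 95% interval -1.21 to 0.72, FDR = 0.812) turned to 0.16 without STH replicate 1.

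The gene table has another row, LOC101112500, that the authors' best protein match also names AHCY. It was singled out after its values were seen. Both rows have an implied gene length of 2131 bases. Only uniquely mapped reads were counted, so reads that fit both rows alike would be in neither count. The value of each row, and of their sum, is therefore uncertain. In sheep, AHCY is known to lie with the coat colour gene ASIP in a tandem duplication. Whether that bears on these rows was not tested. LOC101112500 had 49.9, 29.4 and 23.0 CPM in QHMM against 44.1, 48.0 and 53.5 CPM in STH (log2 fold change 0.51, 95% interval -0.12 to 1.13, FDR = 0.362).

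The split between the rows differed from animal to animal. LOC101112500 held 47.0%, 29.5% and 34.7% of the reads of the pair in QHMM, against 73.3%, 47.0% and 42.1% in STH. STH replicate 1 was the only library in which it held the larger part (95% Wilson interval 70.4% to 76.0%, which covers counting error only). Summed, the pair had 106, 99.8 and 66.3 CPM in QHMM and 60.2, 102 and 127 CPM in STH. With the rows summed, an alternative chosen after the data were seen, the log2 fold change was 0.07 (FDR = 0.930) instead of -0.24. No breed difference in adenosylhomocysteinase was detected by either count.

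**Figure D3:**
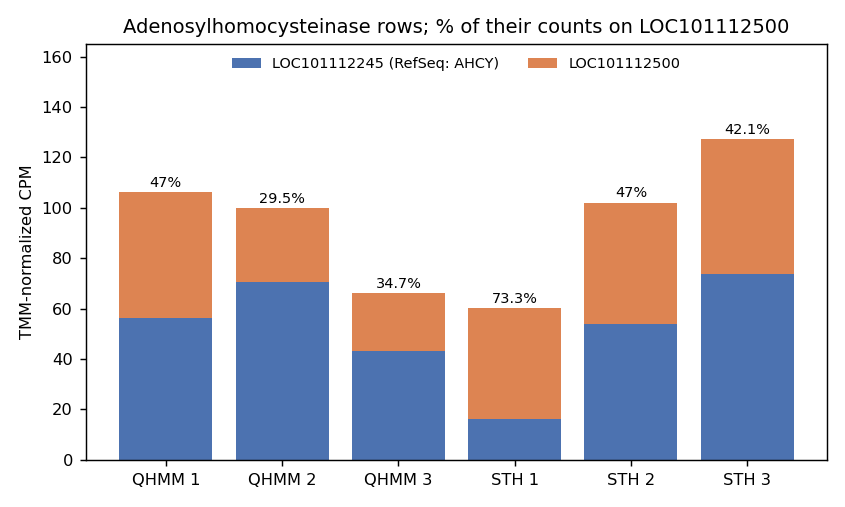
Stacked bars give the TMM-normalized CPM (vertical axis, from 0) of LOC101112245 (blue), which RefSeq pairs with AHCY, and of LOC101112500 (orange) in each library, with the percentage of the reads of the pair on LOC101112500 above each bar. The total ranges from 60.2 in STH replicate 1 to 127 in STH replicate 3, and the share on LOC101112500 is highest, at 73.3%, where the total is lowest.

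Per unit of gene length, AHCY and MAT2A had the highest means of the members in both breeds, and CDO1 and CTH the lowest of those tested. In STH replicate 1, AHCY, by this 1 of its 2 rows, had 9.02 RPKM and was below MAT2B with 12.75 RPKM. In QHMM, AHCY as LOC101112245 had 25.2 ± 3.81 RPKM (SD, n = 3) and MAT2A 22.3 ± 3.25 RPKM, a difference within their spread. MAT2B followed with 9.29 ± 1.89 RPKM. MTRR with 3.92 ± 0.566, MTR with 3.59 ± 1.16 and CBS with 3.42 ± 0.707 RPKM did not differ beyond their spread. CDO1, with 0.920 ± 0.749 RPKM, and CTH, with 0.503 ± 0.270 RPKM, likewise overlapped.

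In STH, MAT2A had 26.0 ± 10.7 RPKM and AHCY 22.2 ± 11.4 RPKM, again without separation, and MAT2B had 11.1 ± 2.23 RPKM. CBS stood next with 9.35 ± 3.84 RPKM, ahead of MTR with 5.97 ± 3.60 and MTRR with 4.39 ± 1.57 RPKM, although the ranges of all 3 over libraries overlapped. CDO1 had 1.25 ± 0.796 RPKM and CTH 0.889 ± 0.302 RPKM. Ranked within each library, which no scaling between libraries can alter, CBS was at place 6, 5 and 5 of the members in QHMM and at place 4, 3 and 4 in STH. It was below MTRR in every QHMM library and above both MTR and MTRR in every STH library.

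**Figure D4:**
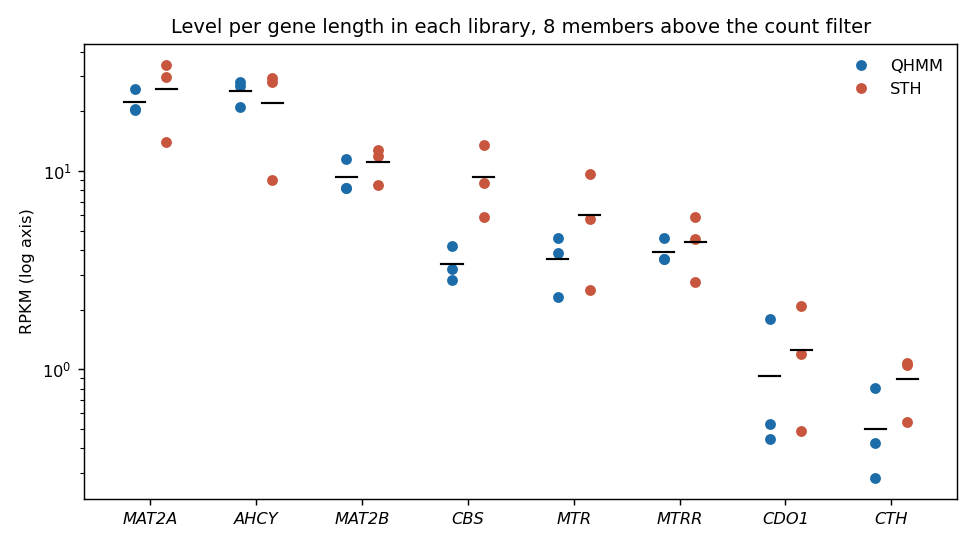
Points are the RPKM (vertical log axis) of the 8 members above the filter in the 3 QHMM (blue) and 3 STH (red) libraries, ordered by their mean over all 6, and black lines are the means of each breed. CBS is level with MTR and MTRR in QHMM (means 3.42, 3.59 and 3.92) and above them in STH (means 9.35, 5.97 and 4.39).

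The genes around the cycle were taken from 7 lists of one-carbon and sulfur metabolism. Of 86 genes listed, 71 were tested. Of these, 5 were called (7.04%, against 3.45% of all tested genes), 0 up-regulated and 5 down-regulated, and the median log2 fold change was -0.10 against 0.02 over all tested genes. The called genes were GADL1, PDXP, AZIN1, AHCYL2 and GAMT. The count was 1 without QHMM replicate 3, 2 without QHMM replicate 1, QHMM replicate 2, STH replicate 2 or STH replicate 3, and 5 without STH replicate 1, and DESeq2 called 9, of which 1, APIP of the methionine salvage route, was up-regulated.

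In the list of cysteine use, taurine and sulfide, 1 of 16 tested genes was called. GADL1, a decarboxylase of acidic amino acids related to the taurine-forming CSAD, had 170, 139 and 145 CPM in QHMM and 31.3, 23.2 and 29.5 CPM in STH. All STH libraries were far below all QHMM libraries, and the gene fell by 2.43 on the log2 scale (SE 0.23, FDR = 0.00208). It was called in each of the 6 fits that left out 1 library, with log2 fold changes from -2.53 to -2.33. GOT1, the cytosolic aspartate aminotransferase that also acts on cysteine sulfinate, had 294.5 ± 83.0 CPM in QHMM (SD, n = 3) and 276 ± 101 CPM in STH (n = 3) and was not called (FDR = 0.903). The sulfide enzymes MPST and SQRDL and the glutathione genes GCLC, GCLM and GSS were among the 15 that were not called.

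In the list of SAM and S-adenosylhomocysteine handling, 1 of 4 genes was called. AHCYL2, an AHCY-like protein known as a binding regulator rather than a hydrolase, had 96.4, 133 and 108 CPM in QHMM and 63.1, 37.7 and 50.2 CPM in STH. The breeds did not overlap, and it fell by 1.16 on the log2 scale (SE 0.25, FDR = 0.0356), although only 1 of the 6 fits without a library called it, that without STH replicate 1. Its relative AHCYL1 had 49.0 ± 3.45 CPM in QHMM and 54.7 ± 6.48 CPM in STH, with an FDR of 0.714.

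Among the small-molecule methyltransferases, 1 of 3 tested genes was called. GAMT, which uses SAM to make creatine, had 105, 151 and 102 CPM in QHMM and 68.0, 51.7 and 60.9 CPM in STH. It fell by 0.99 on the log2 scale (SE 0.24), and its FDR of 0.0495 was just inside the threshold, which none of the 6 fits without a library reached (FDR 0.0558 to 0.159). NNMT, PNMT and ASMT were below the count filter, and TPMT was tested and not called (FDR = 0.835).

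In the list of polyamine synthesis and methionine salvage, 1 of 15 genes was called. AZIN1, the antizyme inhibitor that spares ornithine decarboxylase from degradation, had 68.3, 50.0 and 52.1 CPM in QHMM and 32.6, 13.7 and 17.6 CPM in STH. It fell by 1.41 on the log2 scale (SE 0.31, FDR = 0.0401) and was called in 1 of the 6 fits without a library, that without STH replicate 1. OAZ1, the antizyme itself, had 747 ± 18.3 CPM in QHMM and 907 ± 228 CPM in STH (FDR = 0.606), and ADI1, of the salvage route, had 154 ± 13.2 and 142 ± 17.2 CPM (FDR = 0.815).

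Both CBS and CTH use pyridoxal phosphate, the active form of vitamin B6. Of 12 cobalamin and vitamin B6 genes, 1 was called. PDXP, the phosphatase that removes the phosphate from pyridoxal phosphate, had 12.4, 13.1 and 17.7 CPM in QHMM and 5.999, 3.55 and 4.59 CPM in STH. Every STH library lay below every QHMM library, and PDXP fell by 1.60 on the log2 scale (SE 0.28, FDR = 0.0179), with a call in 5 of the 6 fits without a library. The call was lost without QHMM replicate 3 (FDR = 0.0661). The cobalamin genes TCN2, with 43.1 ± 11.7 CPM in QHMM and 30.0 ± 9.81 CPM in STH, and MMADHC, with 33.3 ± 3.57 and 31.3 ± 3.70 CPM, were not called. Of the 12 genes, 10 had a negative log2 fold change. In 5 of them (41.7%), PDXP included, every STH library lay below every QHMM library, and in 0 every STH library lay above. Over all tested genes, 24.7% did not overlap between breeds in either direction.

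None of the 18 tested folate genes was called by edgeR as fitted here, and 4 had an unadjusted p-value below 0.05, as did 2395 of all 12506 genes. ALDH1L1, with lower values in STH, was called by DESeq2 and by edgeR without the count filter or with a replicate block. SHMT2, the mitochondrial serine hydroxymethyltransferase, had 40.1 ± 4.45 CPM in QHMM and 61.8 ± 8.90 CPM in STH (log2 fold change 0.62, SE 0.21, FDR = 0.136) and was not called.

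Betaine can also methylate homocysteine, through BHMT in liver and kidney. BHMT, BHMT2 and DMGDH had 0 reads in all 6 libraries, each of which allows up to 3. None of the 3 tested genes of this list was called by edgeR or DESeq2, and 0 had an unadjusted p-value below 0.05. ALDH7A1 had 50.9 ± 1.97 CPM in QHMM and 43.1 ± 7.12 CPM in STH.

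**Figure D5:**
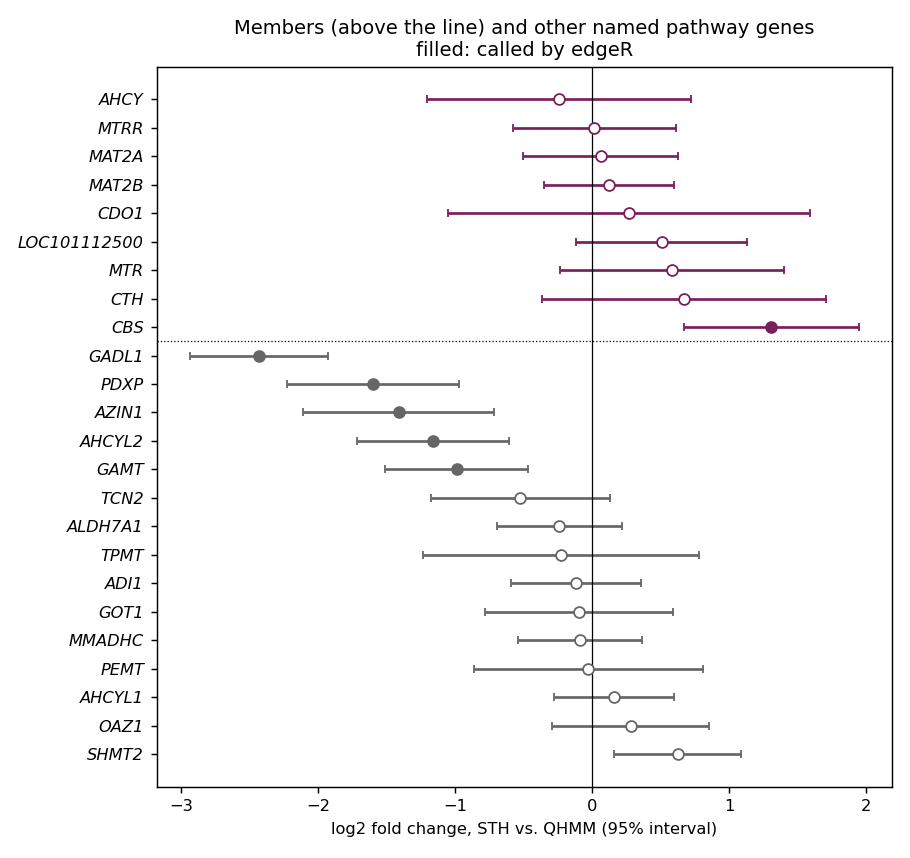
Points are log2 fold changes, STH vs. QHMM (horizontal axis), with 95% intervals for the 8 tested members and LOC101112500 (purple, above the dotted line) and for the other named pathway genes (grey), and filled points were called. Among the members only CBS, at 1.31, is filled, and the 5 filled grey points, from GADL1 at -2.43 to GAMT at -0.99, all lie below 0.

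Of all tested genes, the 5 whose log2 CPM followed CBS most closely over the 6 libraries were CALCOCO2, PDCD2, NKRF, TNS3 and ATG13, with Pearson coefficients of 0.997, 0.992, 0.990, 0.990 and 0.989. These coefficients rank genes and carry no p-value, because the 6 points fall into the breeds and share their libraries. All 5 genes, like CBS, were higher in every STH library than in every QHMM library. That follows largely from how they were chosen, so their calls add no separate evidence about CBS. CALCOCO2, a selective autophagy receptor, had 68.8, 86.8 and 95.5 CPM in QHMM and 158, 229.8 and 156 CPM in STH, and was called (log2 fold change 1.12, SE 0.25, FDR = 0.0396). TNS3, a focal adhesion protein, was called too, with 1.96 (SE 0.38, FDR = 0.0225), and the FDR of the other 3 genes lay between 0.101 and 0.187.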

How the data were processed

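Reads were mapped by the authors to the sheep genome Oar 3.1, unique mapped reads were kept, and the counts per gene were deposited without normalization. The aligner, counter and annotation release are not given in the sources used here. The authors also deposited RPKM values, which scale the counts by gene length and library total. Both tables were used, joined on the 23119 gene names unique in both, and 0 per-sample columns were left out.

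Counts were tested in R 4.3.3 with edgeR 4.0.16 (TMM, filterByExpr, quasi-likelihood F test, breed as the only term), in place of EBSeq, which was not installed. P-values of all 12506 genes tested were turned into FDR as Benjamini and Hochberg describe. The SE was derived from the fold change and the F statistic. Alternatives were DESeq2 1.42.0, limma-trend (limma 3.58.1) on log2(RPKM + 1) and log2(RPKM + 0.1), other filters, scalings and dispersions, a replicate block and leaving out each library. The 6 libraries held 10982191 to 14334544 counted reads, and genes with few reads have wide intervals. The main edgeR fit, edgeR with upper-quartile scaling or a replicate block, DESeq2 and limma-trend on log2(RPKM + 1) were also run on simulated counts. Their spread followed the fitted trend, without the spread particular to single genes or libraries that stand apart. The simulation therefore does not show how far the calls here hold. With 3 animals a breed, p-values rest on the spread between 6 animals.

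Members and lists were chosen with earlier results of these data known. Named genes are the members, every called gene of the 7 lists, the 2 with the highest mean CPM in each list, the markers and the 5 genes most correlated with CBS (log2 CPM, prior count 2). Rows without a symbol were matched through RefSeq gene IDs (ARS-UI_Ramb_v3.0), and 3 listed genes were not analysed here. The values of 1 gene that the rule names are not reported here. Plots were drawn with matplotlib 3.10.9.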

Additional observations from a re-analysis of the deposited data

How the results depend on the processing

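CBS was higher in STH under all 12 other settings that used every library or left out QHMM 2 and STH 3 together (log2 fold change 1.17 to 1.49) and under the 6 fits without 1 library. Its call held in 8 of the 12. The number of members called was 0 of 7 tested with limma-trend on log2(RPKM + 1) or log2(RPKM + 0.1), 0 of 10 with limma-trend without a filter, and 0 of 8 with QHMM 2 and STH 3 left out together, which was tried after seeing the data. Without 1 library, 0 to 1 member was called, 1 to 5 of the other one-carbon and sulfur genes, and 131 to 535 of all genes, against 432 (203 up, 229 down). The other one-carbon and sulfur genes called were 9 with DESeq2, 3 with limma-trend at either pseudocount, 1 with limma-trend without a filter and 1 with QHMM 2 and STH 3 left out. All genes called were 975 with DESeq2, 806 without the count filter, 78 with limma-trend without a filter and 11 with QHMM 2 and STH 3 left out, and limma-trend on log2(RPKM + 1) called 346 (212 up, 134 down). The cause of these shifts was not tested. MTRR turned to -0.0058 with upper-quartile scaling, -0.0006 with DESeq2, -0.0142 with at least 10 counts in every library, -0.0057 with the replicate block, -0.0052 without the 20 most abundant genes and -0.0038 with the AHCY rows summed, and AHCY to 0.069 with its rows summed. Without 1 library, log2 fold changes ranged from -0.18 to 0.28 for MAT2A, -0.013 to 0.24 for MAT2B, -0.69 to 0.16 for AHCY, -0.23 to 0.17 for MTRR, 0.055 to 0.89 for MTR, 0.46 to 1.12 for CTH and -0.21 to 1.11 for CDO1. Replicate numbers are shared between the breeds, and the labels do not say whether they pair the animals. Same-numbered deviations correlated at 0.23, -0.04 and -0.13, and 2 of 6 libraries correlated best with their own number. With 3 animals a breed, these values cannot decide whether the numbers mark a pairing. With the replicate block, 1 member, 5 other one-carbon and sulfur genes and 457 of all genes were called. Of the 5, 1 was up-regulated and 4 were down-regulated: AHCYL2 and GAMT lost their call, and APIP and ALDH1L1 gained one. Depth limits CTH and CDO1, with 7 to 33 reads per library, and MAT1A and GNMT, which were tested only in the fits without a filter and called in neither.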

Other observations

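Some genes of the lists that the naming rule did not reach were singled out after their values were seen. APIP, an enzyme of the methionine salvage route that recycles the sulfur of spent SAM, had 10.6, 16.6 and 14.3 CPM in QHMM against 20.4, 35.5 and 38.3 CPM in STH (log2 fold change 1.18, SE 0.29, FDR = 0.0506), just outside the threshold. It was called as up-regulated under 8 other settings, DESeq2 and the replicate block among them, where GADL1 was called under 19. Upper-quartile scaling did not call APIP. Of the 6 fits without a library, only 1 called it, that without STH replicate 1 (FDR 0.0191 to 0.171 over the 6). ALDH1L1, a folate enzyme, had 10.1, 1.36 and 2.20 CPM in QHMM against 0.957, 0.331 and 0.866 CPM in STH (log2 fold change -2.64, SE 0.74, FDR = 0.0791), and QHMM replicate 1 stood far above the other libraries. CD320, the receptor that takes up transcobalamin-bound cobalamin, had 17.9, 21.4 and 10.2 CPM in QHMM and 8.93, 6.69 and 8.84 CPM in STH (log2 fold change -1.01, FDR = 0.0965). MUT, of the same list, had 31.8, 32.8 and 48.0 CPM in QHMM and 22.0, 22.1 and 21.5 CPM in STH (log2 fold change -0.78, FDR = 0.0885). Both were called as down-regulated by DESeq2 and under no other setting.

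PNMT, which uses SAM to make adrenaline, was below the count filter, with 1.38, 0.0905 and 0.314 CPM in QHMM and 2.23, 0.661 and 0.260 CPM in STH. Replicate 1 was the highest library of each breed for PNMT, as it was for CDO1 and for 3 of the 6 adipocyte markers.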
